A study of Mus musculus with 6 samples.

Results

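The nuclear genes of respiratory complex I were followed in the tibialis anterior (TA) muscle of mice that lack the clock factor BMAL1 in skeletal muscle and received an adeno-associated virus (AAV) carrying either GFP or Rbm20. All protein-coding genes whose mouse symbol starts with Nduf were taken, which gave 46 genes of the 55401 in the count table. All 46 had enough reads to be tested, among 17222 genes tested in all. Another 5 Nduf symbols were left out because the annotation (GENCODE M21) does not class them as protein-coding. They are the processed pseudogenes Ndufa11b, Ndufab1-ps, Ndufb4c and Ndufs6b, and Ndufb1-ps, which is annotated as a non-coding transcript.

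Complex I (NADH:ubiquinone oxidoreductase) is the entry point of the mitochondrial respiratory chain. It takes electrons from NADH, passes them along a matrix arm to ubiquinone, and uses the energy to pump protons through a membrane arm. Core subunits carry out this chemistry and are encoded partly in the nucleus and partly in mitochondrial DNA, accessory subunits surround them, and assembly factors help to build the complex without staying in it. In skeletal muscle, complex I is most abundant in oxidative fibres.

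All 6 libraries came from adult male C57BL/6 mice with the inducible muscle knockout (iMSBmal1), in which a Cre recombinase driven by the human skeletal actin promoter deletes Bmal1 in muscle fibres after tamoxifen. Mice were 12 to 16 weeks old when tamoxifen was given at 2 mg per day for 5 days. AAV was put into the TA 4 weeks after recombination, and the muscle was taken 4 weeks after that. There were 3 AAV-GFP and 3 AAV-RBM20 libraries, and no group with intact Bmal1 was part of the series. The RBM20 vector expressed mouse Rbm20 cDNA with an HA tag from the CMV promoter. More vector genomes of it were injected than of the GFP vector, and dose and transgene cannot be told apart. The labels do not say whether the libraries of a group came from separate animals, so p-values measure only the spread between these libraries. In the paper's protein blots, some mice are listed with opposite legs given the GFP and the RBM20 vector. Whether the sequenced libraries share animals between the groups in this way was not stated, and the reported test did not pair libraries. In whole muscle, fewer cells of a type and less RNA per cell cannot be told apart.

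Total counts were 41400132 to 54226618 per library. Levels are given as CPM, counts scaled to a common library size after TMM scaling. Rbm20, the gene carried by the vector, was at 170, 165 and 164 CPM in the AAV-GFP libraries and at 499, 545 and 406 CPM with AAV-RBM20, so the groups did not overlap. The log2 fold change of Rbm20 was 1.54 ± 0.15 (SE) and its adjusted p 0.121 (edgeR), or 0.0107 with the replicate number as a block, which passed the threshold. DESeq2 without the block gave 1.38e-17. Bmal1, listed as Arntl, was at 35.0 ± 3.63 CPM (SD, n = 3) and 26.3 ± 1.63 CPM (SD, n = 3). Counts were not resolved by exon and so do not check the knockout. The libraries numbered 3 stood apart in both groups. Titin (Ttn) took 4.48% of the counts of AAV-GFP replicate 3 and 9.05% of those of AAV-RBM20 replicate 3, against 16.9% to 17.8% in the other libraries, and mitochondrially encoded genes took 12.5% and 11.4% against 6.41% to 7.66%. The summed level of 10 slow and oxidative fibre markers was 97.1 CPM in AAV-GFP replicate 3 against 532 to 984 CPM elsewhere. The sum of 10 skeletal muscle markers, among them Acta1, Ckm and Myh4, was 128276 to 138213 CPM in AAV-GFP and 84059 to 128401 CPM in AAV-RBM20, and their estimates were higher in AAV-RBM20 for 2 of 10, with 0 called and a median log2 fold change of -0.24. The part of this difference in the Nduf levels was not tested.

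The Nduf genes covered a wide range of levels. Dividing the mean CPM over the 6 libraries by the length of each gene's principal transcript allows genes to be compared. The 7 nuclear core subunits had a median of 167 CPM per kb, the 29 accessory subunits 95.1 CPM per kb and the 8 assembly factors 9.6 CPM per kb. The median of the accessory subunits was thus 9.90 times that of the assembly factors, and no assembly factor reached the level of any accessory subunit other than Ndufb2. Divided by the merged length of all annotated exons instead, Ndufaf1 at 19.6 CPM per kb was above Ndufab1, Ndufb7 and Ndufb8 (11.6 to 18.8 CPM per kb). Among the assembly factors, Ndufaf1, part of the complex that builds the membrane arm, was highest at 20.3 CPM per kb and Ndufaf2 was lowest at 4.34 CPM per kb.

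**Figure D1:**
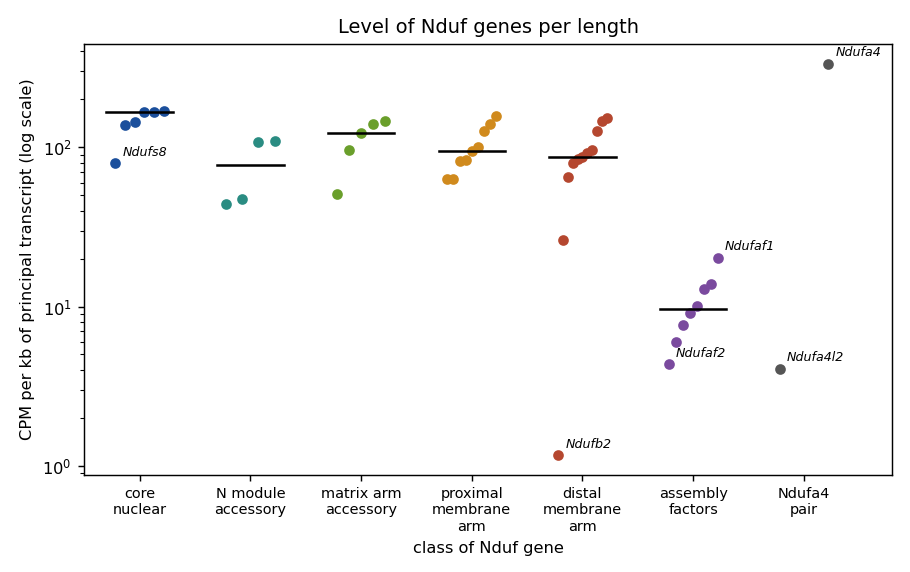
Mean level of 45 Nduf genes over the 6 libraries, in CPM per kb of principal transcript on a log axis, by class. Each point is a gene and the black lines are the class medians over all 46 genes. Assembly factors lie between 4.34 and 20.3, below all accessory subunits except Ndufb2 at 1.17.

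Ndufb2, a small subunit of the distal membrane arm, was listed far below the others, with 163 to 273 counts per library and 1.17 CPM per kb. Its exons share their strand with those of Gm42420, a gene listed at 0 in all libraries, so its level is uncertain. Ndufb8 and Ndufb9 also share exons on the same strand with a gene listed at 0 (Gm20538 and Gm49356) but were at 87.0 and 95.8 CPM per kb. A further limit is that 17 of the 46 genes overlap an exon of another gene on the opposite strand, and the strand setting of the counting was not given in the sources used here. Pseudogene copies were low, with Ndufab1-ps highest of the 4 at 5.55 ± 0.65 CPM (SD, n = 3) in AAV-GFP. Reads of Ndufab1, Ndufa11, Ndufb4 and Ndufs6 could still be split with their copies. Ndufb1-ps, left out by its annotation, was not low. It was at 40.8 ± 11.7 CPM in AAV-GFP and 34.7 ± 7.16 CPM in AAV-RBM20 (SD, n = 3), with groups that overlapped.

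No Nduf gene passed the threshold between AAV-RBM20 and AAV-GFP. By the quasi-likelihood test of edgeR, with p-values adjusted over all genes tested (Benjamini-Hochberg), 0 of 46 had an adjusted p under 0.05 and the lowest was 0.618. The background was 0 of 17222 genes, or 0.0%. At an unadjusted p under 0.05, 3 Nduf genes passed, all lower in AAV-RBM20 (Ndufa13, Ndufb7 and Ndufaf7), where 3.82% of all genes were lower at that level. DESeq2 also called 0 of 46 (background 0.435%), with 4 lower at an unadjusted p under 0.05 (background 4.49%), and limma-voom called 0 (background 0.0%), with 1 lower at an unadjusted p under 0.05 (background 3.65%). With the replicate number as a block, edgeR called 0 of 46 with a background of 0.145%, and 16 of 46 were lower at an unadjusted p under 0.05 with a background of 9.92%.

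The estimates nevertheless lay mostly on one side. The log2 fold change was below 0 in 40 of 46 Nduf genes, against 48.7% of all genes tested. The median over the 46 was -0.20, against 0.0090 over all genes tested, and 23 of them were below -0.2. Standard errors of the single estimates ran from 0.11 to 0.32. The 6 genes with estimates above 0 were Ndufb2, Ndufa4l2, Ndufaf3, Ndufs1, Ndufa9 and Ndufv1. In 38 to 40 of the 46 genes the estimate was below 0 under each of the other scalings tried, and with upper quartile factors Ndufa10 and Ndufaf1 turned above 0. A fit scaled to total counts alone was not among them. As a share of total counts, the 46 genes together took 0.411%, 0.419% and 0.569% in AAV-GFP. In AAV-RBM20 they took 0.423%, 0.421% and 0.545%, which was higher than in AAV-GFP for replicates 1 and 2. The TMM factors ran from 0.906 (AAV-GFP replicate 1) to 1.17 (AAV-RBM20 replicate 3), so the lower side of the estimates depends on this scaling. By pair of the same replicate number, 29 of 46 had the lower value in AAV-RBM20 in 3 of 3 pairs, with a background of 23.0%. The ranges of the groups did not overlap for 9 genes that were lower in AAV-RBM20 and 0 that were higher, with backgrounds of 9.04% and 7.71%. These 9 were Ndufa7, Ndufa8, Ndufa12, Ndufa13, Ndufb7, Ndufb8, Ndufv3, Ndufaf2 and Ndufaf7.

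**Figure D2:**
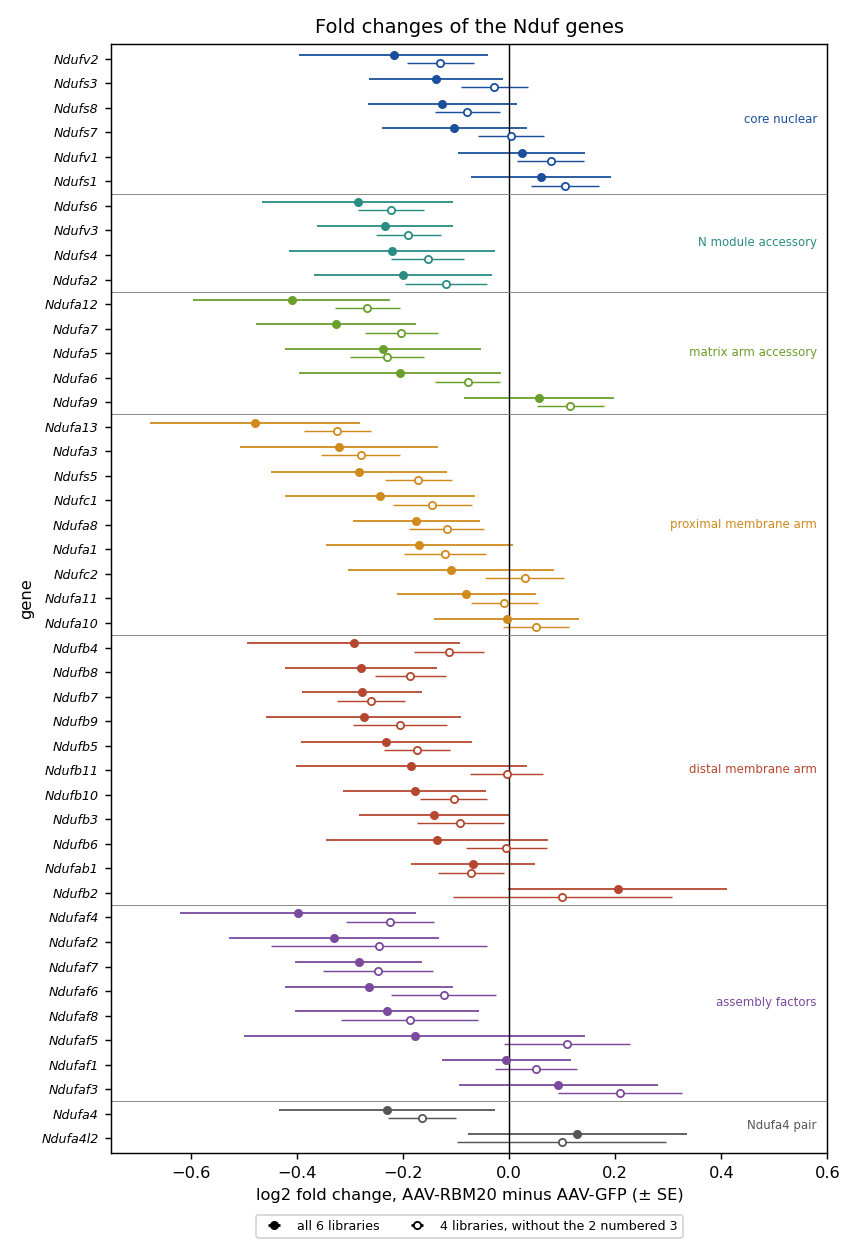
Log2 fold change of 45 Nduf genes, AAV-RBM20 minus AAV-GFP, with its standard error from edgeR. Filled points use all 6 libraries and open points leave out the 2 libraries numbered 3. Filled points run from -0.48 (Ndufa13) to 0.20 (Ndufb2), 39 of 45 lie left of 0, and most open points lie closer to 0.

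A single control library carried much of this difference. AAV-GFP replicate 3 had the highest level of all 6 libraries for 41 of the 46 genes, the exceptions being Ndufa8, Ndufa10, Ndufa4l2, Ndufb2 and Ndufv1. The lowest level was in AAV-RBM20 replicate 1 for 26 genes. The summed level of the 46 genes was 4543, 4402 and 5621 CPM in AAV-GFP against 4204, 4345 and 4649 CPM in AAV-RBM20. The median deviation of the 46 genes from their 6-library mean, on the log2 CPM scale, was 0.0059, -0.06 and 0.38 in AAV-GFP libraries, against -0.19, -0.12 and 0.05 in AAV-RBM20. Both libraries numbered 3 were thus the highest of their groups, and AAV-RBM20 replicate 3 was above AAV-GFP replicates 1 and 2.

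**Figure D3:**
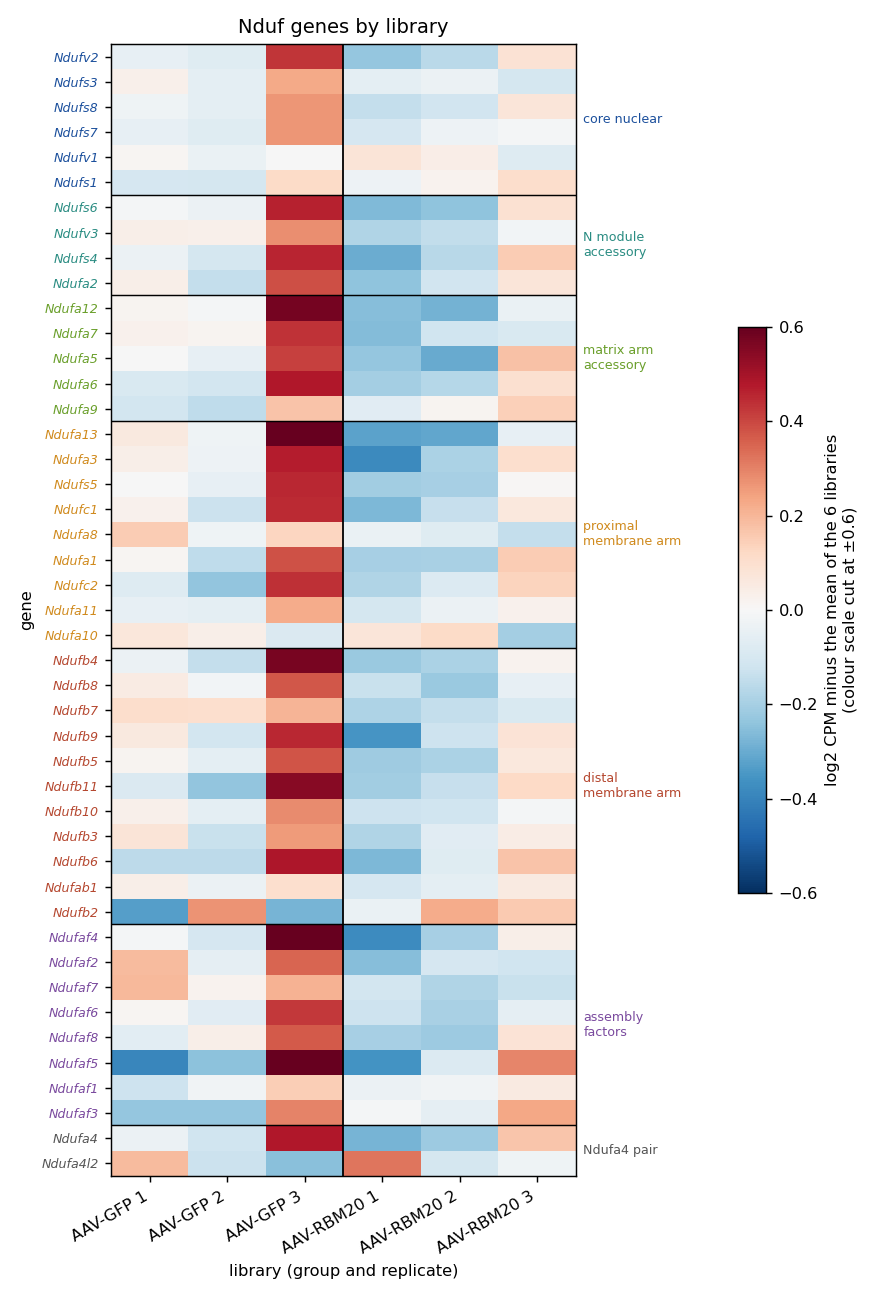
Level of 45 Nduf genes in each library, as log2 CPM minus the mean of that gene over the 6 libraries. Rows are genes by class and columns are libraries. AAV-GFP replicate 3 is highest for 40 of 45 genes, while AAV-RBM20 replicate 1 is lowest for 26.

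Without AAV-GFP replicate 3 the median log2 fold change of the 46 genes was -0.05 and 32 were below 0, with a background of 49.1%. Without both libraries numbered 3 the median was -0.12 and 35 were below 0, with a background of 48.2%. Within the pairs the median difference in log2 CPM was -0.18, -0.05 and -0.31 for numbers 1, 2 and 3, with 37, 31 and 44 of 46 genes lower in AAV-RBM20. Leaving both libraries numbered 3 aside, AAV-GFP replicates 1 and 2 were both above AAV-RBM20 replicates 1 and 2 for 28 of 46 genes, where the background was 24.3%. In the fit to these 4 libraries, 3 Nduf genes were called lower (Ndufa12, Ndufa13 and Ndufb7) with a background of 2.05%. In AAV-GFP replicate 3 the high Nduf levels came with a low level of slow fibre markers and a high share of mitochondrial reads. AAV-RBM20 replicate 3 also had a high mitochondrial share (11.4%), but its slow fibre markers summed to 750 CPM and were not low. The part of the slow fibre markers and the mitochondrial share in the result was not tested.

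Values are given for 6 core subunits. Ndufs1, Ndufv1 and Ndufv2 belong to the N module, where NADH is oxidised, and Ndufs3, Ndufs7 and Ndufs8 belong to the Q module, where ubiquinone is reduced. Of these 6, 4 had estimates below 0, the groups overlapped for all 6, and adjusted p-values from edgeR were 0.730 to 0.962.

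In the N module, Ndufs1 (ENSMUSG00000025968; GRCm38 chr1:63143596-63176833), which carries several iron-sulphur clusters, was at 415, 413 and 481 CPM in AAV-GFP and at 434, 451 and 477 CPM in AAV-RBM20. Ndufv1 (ENSMUSG00000037916; chr19:4007384-4012806), which binds NADH and the flavin, was at 280, 269 and 276 CPM in AAV-GFP and at 292, 285 and 262 CPM in AAV-RBM20. The groups overlapped for both genes, with log2 fold changes of 0.06 ± 0.13 (SE) for Ndufs1 and 0.02 ± 0.12 (SE) for Ndufv1. Ndufv2, their iron-sulphur partner, was at 225, 221 and 313 CPM in AAV-GFP and at 198, 208 and 247 CPM in AAV-RBM20. It had the lowest estimate of the 6, -0.22 ± 0.18 (SE), and in both groups its highest library was the one numbered 3.

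In the Q module, Ndufs3 was at 153, 144 and 175 CPM in AAV-GFP and at 144, 146 and 139 CPM in AAV-RBM20. It was highest in AAV-GFP replicate 3 but not raised in AAV-RBM20 replicate 3. Ndufs7, which holds the last iron-sulphur cluster before ubiquinone, was at 160, 158 and 199 CPM in AAV-GFP and at 155, 163 and 164 CPM in AAV-RBM20. Without AAV-GFP replicate 3 its estimate moved from -0.10 to 0.01. Ndufs8 was at 78.5, 76.7 and 95.9 CPM in AAV-GFP and at 72.4, 73.8 and 84.0 CPM in AAV-RBM20, with a log2 fold change of -0.13 ± 0.14 (SE).

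**Figure D4:**
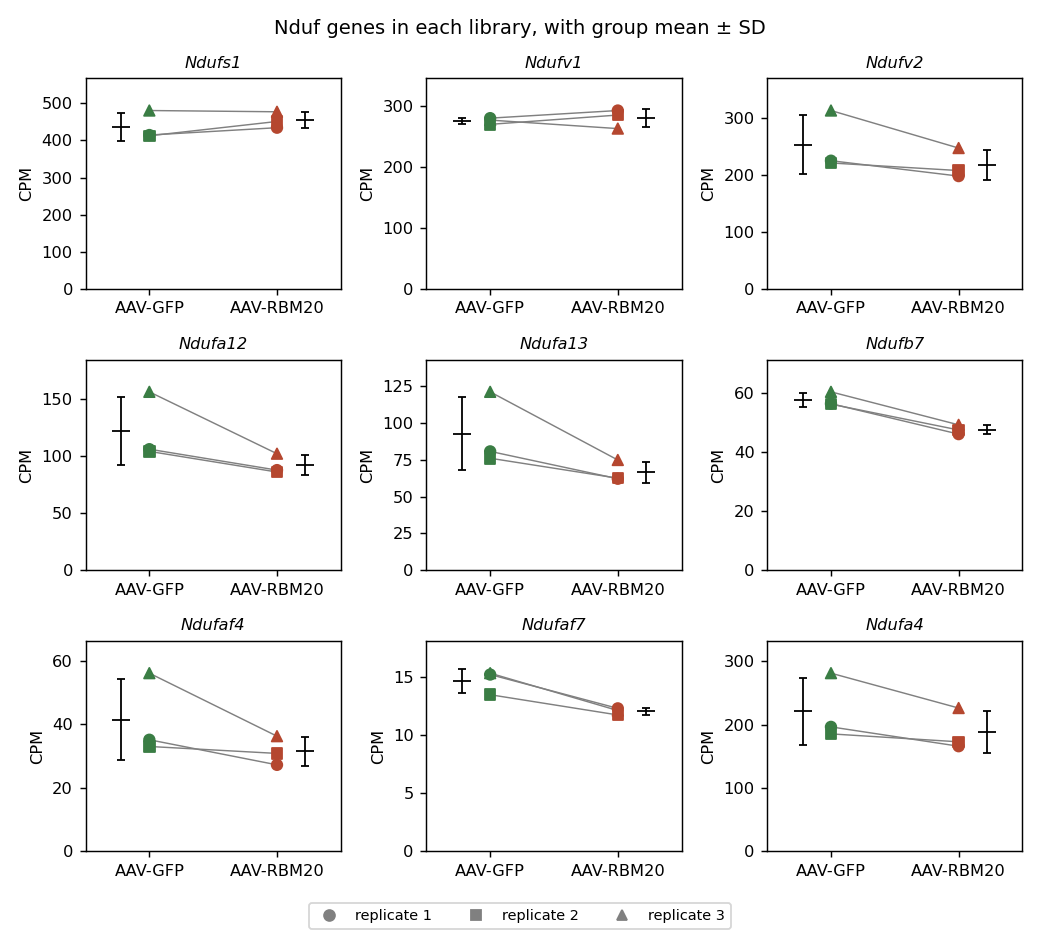
CPM of 9 Nduf genes in each library on axes that start at 0, with lines joining libraries of the same replicate number and bars for the group mean ± SD (n = 3). Ndufs1 and Ndufv1 overlap between groups, while Ndufa12, Ndufa13, Ndufb7 and Ndufaf7 were lower in all AAV-RBM20 libraries.

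All 4 accessory subunits of the N module had estimates below 0, with a median of -0.23. Without AAV-GFP replicate 3 the median was -0.07, and without both libraries numbered 3 it was -0.17. The 4 are Ndufv3, Ndufs4, Ndufs6 and Ndufa2, and Ndufs4 and Ndufs6 are known as sites of inherited complex I deficiency. Ndufv3 was at 70.6, 70.2 and 83.6 CPM in AAV-GFP and at 60.7, 62.2 and 68.0 CPM in AAV-RBM20. It was the one gene of the class whose groups did not overlap, with a log2 fold change of -0.23 ± 0.13 (SE) and an edgeR adjusted p of 0.657.

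In the rest of the matrix arm, 4 of 5 accessory subunits had estimates below 0, with a median of -0.24, or -0.08 without AAV-GFP replicate 3. Without both libraries numbered 3 the median was -0.20. Ndufa12 (ENSMUSG00000020022; chr10:94198720-94221443), a late-added subunit related to the assembly factor Ndufaf2, was at 106, 104 and 156 CPM in AAV-GFP and at 87.6, 85.9 and 102 CPM in AAV-RBM20. Every AAV-RBM20 value lay below every AAV-GFP value. The estimate was -0.41 ± 0.19 (SE; edgeR adjusted p 0.641). It was -0.19 (edgeR adjusted p 0.572) without AAV-GFP replicate 3. Without both libraries numbered 3 it was -0.27 ± 0.06 (SE) with an adjusted p of 0.0368, and DESeq2 with the replicate block gave an adjusted p of 0.0451. Ndufa7 was also lower in all AAV-RBM20 libraries, at 53.5, 58.9 and 60.2 CPM against 65.3, 64.7 and 86.4 CPM, with a log2 fold change of -0.33 ± 0.15 (SE). Ndufa9, a subunit that helps hold the matrix arm to the membrane arm, was the exception at 0.06 ± 0.14 (SE).

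All 9 subunits of the proximal membrane arm had estimates below 0, with a median of -0.17. Without AAV-GFP replicate 3, 7 of 9 were below 0, with a median of -0.06. Without both libraries numbered 3, 7 of 9 were also below 0, with a median of -0.12. Ndufa13 (ENSMUSG00000036199; chr8:69894180-69902558), also known as GRIM-19 and lying where the arms join, had the lowest estimate of all 46 genes. It was at 80.7, 76.0 and 121 CPM in AAV-GFP and at 62.1, 62.5 and 74.8 CPM in AAV-RBM20, a difference of the means of -28.2%. The highest AAV-RBM20 library lay just under the lowest AAV-GFP library. With all libraries its log2 fold change was -0.48 ± 0.20 (SE; edgeR adjusted p 0.618). It was -0.24 without AAV-GFP replicate 3. Without both libraries numbered 3 it was -0.32 ± 0.06 (SE) with an adjusted p of 0.0199, and DESeq2 with the replicate block, which called 2 of 46 Nduf genes lower with a background of 1.95%, gave 0.0184. Ndufa13 overlaps Tssk6 on the opposite strand. Ndufa10 was at the other end of the class, with -0.0046 ± 0.14 (SE), and it was lowest in the libraries numbered 3 of both groups, at 190 and 175 CPM against 207 to 219 CPM.

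In the distal membrane arm, where the protons farthest from the matrix arm are pumped, 10 of 11 subunits had estimates below 0, with a median of -0.18. Without AAV-GFP replicate 3, 8 of 11 were below 0, with a median of -0.04. Without both libraries numbered 3, 10 of 11 were below 0, with a median of -0.10. Ndufb7 (ENSMUSG00000033938; chr8:83566671-83571626), which faces the intermembrane space, was at 56.3, 56.1 and 60.3 CPM in AAV-GFP and at 46, 47.4 and 49.1 CPM in AAV-RBM20. The libraries within each group were close together and the groups did not overlap. The log2 fold change of Ndufb7 was -0.28 ± 0.11 (SE; edgeR adjusted p 0.618), and it was -0.25 without AAV-GFP replicate 3. Without both libraries numbered 3 it was -0.26 ± 0.06 (SE) with an adjusted p of 0.0482. Ndufb8 was at 60.7, 57.9 and 76.0 CPM in AAV-GFP and at 53.5, 50.2 and 56.6 CPM in AAV-RBM20, with a log2 fold change of -0.28 ± 0.14 (SE). Ndufb2 had the highest estimate of all 46 genes, 0.20 ± 0.21 (SE), at 4.01, 6.09 and 4.16 CPM in AAV-GFP and at 4.91, 5.90 and 5.62 CPM in AAV-RBM20. Its groups overlapped and its counts were the uncertain ones described above. Ndufab1, the mitochondrial acyl carrier protein, which also serves outside complex I, was at -0.07 ± 0.12 (SE).

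Of the 8 assembly factors, 7 had estimates below 0, with a median of -0.25, and 5 without AAV-GFP replicate 3, with a median of -0.10. Without both libraries numbered 3, 5 were below 0, with a median of -0.16. Ndufaf4, which acts with Ndufaf3 on the early matrix arm, was at 35.2, 33.1 and 56.1 CPM in AAV-GFP and at 27.3, 30.9 and 36.3 CPM in AAV-RBM20. AAV-RBM20 replicate 3 was above 2 of the AAV-GFP libraries, so the groups overlapped. Its log2 fold change was -0.40 ± 0.22 (SE) and moved to -0.12 without AAV-GFP replicate 3, or -0.22 without both libraries numbered 3. Its partner Ndufaf3 was at 7.55, 7.55 and 10.9 CPM in AAV-GFP and at 8.80, 8.56 and 10.4 CPM in AAV-RBM20, with a log2 fold change of 0.09 ± 0.19 (SE). Ndufaf7, a methyltransferase needed for assembly, was at 15.3, 13.5 and 15.4 CPM in AAV-GFP and at 12.3, 11.8 and 12.1 CPM in AAV-RBM20. Its groups did not overlap, and its estimate was -0.28 ± 0.12 (SE; edgeR adjusted p 0.618) with all libraries and -0.25 without AAV-GFP replicate 3. Ndufaf2, which holds the place of Ndufa12 during assembly, was at 3.32, 2.80 and 3.70 CPM in AAV-GFP and at 2.44, 2.71 and 2.68 CPM in AAV-RBM20, with a log2 fold change of -0.33 ± 0.20 (SE). Ndufaf1 was at -0.0054 ± 0.12 (SE), and the sign of this estimate depended on the scaling. Ndufaf5, which modifies Ndufs7, stood out in the libraries numbered 3, at 26.6 CPM in AAV-GFP replicate 3 and 18.8 CPM in AAV-RBM20 replicate 3 against 11.7 to 14.6 CPM in the others.

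Ndufa4 and Ndufa4l2 carry the Nduf name but are treated apart, since the Ndufa4 protein is now counted as a subunit of complex IV and Ndufa4l2 is its relative known to be induced by hypoxia. Per kb of transcript, Ndufa4 was 82.3 times as high as Ndufa4l2 over the 6 libraries. Ndufa4 was at 196, 185 and 281 CPM in AAV-GFP and at 166, 173 and 226 CPM in AAV-RBM20. It was lower in AAV-RBM20 in 3 of 3 pairs although the groups overlapped, with a log2 fold change of -0.23 ± 0.20 (SE). This moved to -0.02 without AAV-GFP replicate 3, and to -0.17 without both libraries numbered 3. Ndufa4l2 was at 4.30, 3.45 and 3.17 CPM in AAV-GFP and at 4.71, 3.51 and 3.71 CPM in AAV-RBM20, with a log2 fold change of 0.13 ± 0.21 (SE). AAV-GFP replicate 3, the highest library for Ndufa4, was the lowest for Ndufa4l2.

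The length of the transcripts went along weakly with the size of the estimates. The 23 Nduf genes with the shorter principal transcripts (419 to 971 bases) had a median log2 fold change of -0.23 with 22 below 0, and the 23 with the longer ones (983 to 4371 bases) a median of -0.14 with 18 below 0. Across the 46 genes, which share the same libraries, Spearman's rho between length and log2 fold change was 0.30. It was 0.27 without Ndufb2 and Ndufa4l2, and 0.075 over all genes tested with the merged exon length. Length and class of subunit were not separated. After a trend on exon length and GC content was removed from each library, the median of the 46 was -0.16 and 37 were below 0, with a background of 50.3%.

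The promoters of the Nduf genes were searched for motifs of factors known to act on respiratory chain genes or on clock genes. RefSeq gave a promoter of 300 bases (250 before the start and 50 after, build GRCm38.p6) for 40 of the 46 genes and for 27025 genes in all. The core of the site for NRF1, a regulator of respiratory chain genes (GCGCANGCG, both strands), was found in 10 of the 40 promoters, or 25%, against 7.03% of all. The YY1 element (AAGATGGCG) was found in 15% against 1.64%, and the ETS element bound by GABP (CCGGAAG) in 15% against 9.93%. The E-box (CACGTG), the sequence bound by BMAL1 with its partner CLOCK, was found in 2 promoters, those of Ndufa7 and Ndufv1, or 5%, against 8.09% of all. The ERR element (TCAAGGTCA) was in 0 of 40, against 0.466% of all. Matches that overlap on both strands count once per promoter, and the promoter of Ndufs6 holds both NRF1 and YY1 letters. Such matches are descriptions of the letters, not of binding. The background was every promoter searched and was not limited to the genes tested in these libraries.

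The stretches around 4 of these matches that lie outside annotated exons are printed here on the strand of the gene, with the motif in capitals, because they pair the lowest assembly factor estimate (Ndufaf4), subunits of both membrane arm classes (Ndufs5 and Ndufb4), and the E-box next to a core subunit (Ndufv1). They lie at chr4:24897930-24898018 on the plus strand for Ndufaf4, and on the minus strand at chr4:123718236-123718324 for Ndufs5, chr16:37654511-37654599 for Ndufb4 and chr19:4012879-4012964 for Ndufv1.
Ndufaf4, NRF1 core, first base 113 before the start: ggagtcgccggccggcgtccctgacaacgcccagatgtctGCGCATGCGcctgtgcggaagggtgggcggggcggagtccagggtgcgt
Ndufs5, NRF1 core, first base 98 before the start: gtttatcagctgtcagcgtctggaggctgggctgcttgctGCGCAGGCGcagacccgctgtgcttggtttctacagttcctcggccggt
Ndufb4, NRF1 core, first base 191 before the start: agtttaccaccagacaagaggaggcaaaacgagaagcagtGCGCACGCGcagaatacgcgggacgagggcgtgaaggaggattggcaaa
Ndufv1, E-box, first base 169 before the start: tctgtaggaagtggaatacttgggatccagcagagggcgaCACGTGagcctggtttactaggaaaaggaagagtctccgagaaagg
The 10 genes with an NRF1 core had log2 fold changes from -0.40 (Ndufaf4) to -0.08 (Ndufa11), and the 2 with an E-box were at -0.33 (Ndufa7) and 0.02 (Ndufv1). Nrf1 itself, Gabpa, Esrra and the coactivator Ppargc1a (PGC-1α) had log2 fold changes of 0.04 ± 0.13, -0.04 ± 0.15, -0.11 ± 0.12 and 0.17 ± 0.15 (SE), and their groups overlapped. Yy1 was at 52.1 ± 1.34 CPM in AAV-GFP and 45.6 ± 1.74 CPM in AAV-RBM20 (SD, n = 3), with groups that did not overlap and a log2 fold change of -0.19 ± 0.11 (SE; edgeR adjusted p 0.658). Of all genes tested, 9.04% were lower without overlap, and 0 of 15 listed regulators of mitochondrial genes were called. Of these 15, 8 had estimates below 0 and 7 above, with a median of -0.016. Gabpb1 also had groups that did not overlap but was higher, at 6.93 ± 0.29 and 8.13 ± 0.30 CPM (SD, n = 3). Its log2 fold change was 0.23 ± 0.13 (SE; edgeR adjusted p 0.657), and 7.71% of all genes tested were higher without overlap.

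The mitochondrially encoded partners of the Nduf genes, the mt-Nd genes, are core subunits of the membrane arm. Of the 7, 6 had estimates below 0 and 0 were called, with backgrounds of 48.7% and 0.0%, and the median log2 fold change was -0.44. mt-Nd1 was at 8578, 8055 and 15138 CPM in AAV-GFP and at 5720, 6082 and 9717 CPM in AAV-RBM20, with a log2 fold change of -0.56 ± 0.31 (SE). For mt-Nd1, as for the median of the nuclear genes, AAV-GFP replicate 3 was highest and AAV-RBM20 replicate 3 lay above AAV-GFP replicates 1 and 2. This did not hold for mt-Nd5, or for mt-Nd4l, which was at 10.8 CPM in AAV-RBM20 replicate 3 and 8.04 CPM in AAV-GFP replicate 3. mt-Nd5 was the one mt-Nd gene whose groups did not overlap, while 9.04% of all genes tested were lower without overlap. Levels of mt-Nd5 were 11235, 11232 and 13166 CPM in AAV-GFP against 8404, 8841 and 11168 CPM in AAV-RBM20. The edgeR estimate for mt-Nd5, -0.33 ± 0.19 (SE), had an adjusted p of 0.657. Without AAV-GFP replicate 3 the median of the 7 was -0.18, and without both libraries numbered 3 it was -0.39. Within the pairs the median difference in log2 CPM was -0.58, -0.31 and -0.50 for numbers 1, 2 and 3.

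Of 13 measured assembly factors outside the Nduf names, 10 had estimates below 0 and 0 were called, with a median of -0.13 against -0.25 for the 8 Ndufaf genes. Genes of complexes II to V, which complete the respiratory chain and ATP synthase, had estimates below 0 in 35 of 46 tested, with 0 called and a median of -0.11 against -0.20 for the Nduf genes. Without AAV-GFP replicate 3 the median was 0.01 for complexes II to V and -0.05 for the Nduf genes. Without both libraries numbered 3 these medians were -0.06 and -0.12. Whether the Nduf genes differed from these lists was not tested.

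**Figure D5:**
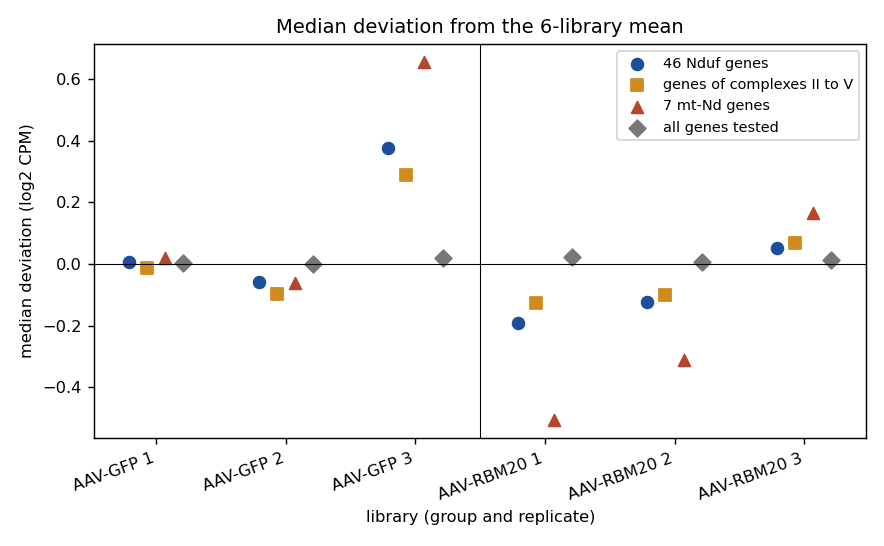
Median deviation from the 6-library mean, in log2 CPM, of the 46 Nduf genes, the genes of complexes II to V, the 7 mt-Nd genes and all genes tested, in each library. AAV-GFP replicate 3 is highest for the respiratory chain sets, at 0.38 for the Nduf genes and 0.66 for the mt-Nd genes, while all genes tested stay between -0.0014 and 0.022.

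Markers of other cell types were measured beside the Nduf genes. Estimates were higher in AAV-RBM20 for 9 of 10 slow and oxidative fibre markers, with 0 called. Summed macrophage markers were 38.3 to 126 CPM in AAV-GFP and 80.5 to 186 CPM in AAV-RBM20 (9 of 10 higher, 0 called and 1 called with the replicate block), and fibroblast markers 622 to 1289 CPM and 1035 to 1402 CPM (6 of 6 higher, 0 called). Endothelial markers were at 138 to 333 and 217 to 327 CPM (5 of 5 higher), Schwann cell markers at 21.8 to 51.4 and 31.6 to 42.6 CPM (3 of 5 higher), and adipocyte markers at 61.2 to 84.2 and 55.4 to 78.9 CPM (0 of 4 tested higher), with Adipoq and Lep at 0 in at least 1 library. Erythroid markers were at 4.06 to 10.6 and 2.69 to 27.3 CPM (2 of 3 tested higher), with Hba-a2 at 0 in at least 1 library. The part of these cells in the Nduf levels was not tested.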

How the data were processed

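Raw whole-number counts per Ensembl gene were deposited by the authors, who mapped 100-base paired reads of ribosomal RNA-depleted stranded libraries to mm10 with HISAT2 and counted them with HTSeq. Versions, annotation release and strand setting were not given in the sources used here. A second deposited table of normalised values was not used. Symbols and positions came from GENCODE M21, and 260 genes had no symbol.

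Groups were compared with edgeR 4.0.16 in R 4.3.3 (filterByExpr, TMM, robust glmQLFit, glmQLFTest, no covariate), with Benjamini-Hochberg adjustment over 17222 genes and a threshold of 0.05. The standard error was the log2 fold change divided by the square root of F. Fits were tested on simulated data. Alternatives were DESeq2 1.42.0, limma-voom (limma 3.58.1), other scalings, filters and libraries, and a block on the replicate number. The numbers are those of the titles, while descriptions and column names give the AAV-RBM20 libraries other numbers (4 to 6). Deviations of same-numbered libraries correlated at 0.42, 0.20 and 0.48 across genes. All were above the minimum of 0.1, and the pairing was accepted on that basis. However, AAV-GFP 2 with AAV-RBM20 1 (0.22) and AAV-GFP 1 with AAV-RBM20 2 (0.13) also exceeded that minimum. Because AAV-GFP 2 correlated more with AAV-RBM20 1 than with AAV-RBM20 2, the check cannot decide how numbers 1 and 2 are matched. Chi-square per degree of freedom between replicates was 15.1 to 545, so no library was a copy of another.

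The Nduf genes, the lists and the promoter motifs were chosen with earlier results of these data known. Genes named with values were the core subunits (except 1 that is counted but not reported here), the 3 highest and 3 lowest fold changes, the highest and lowest levels per length, the Ndufa4 pair, and any gene past the threshold. Ndufb7, Ndufaf7, Ndufaf5, Ndufv3, Ndufa7, Ndufa9, Ndufa10, Ndufa11, Ndufb8, Ndufb9, Ndufs5, Ndufb4 and Ndufab1 were added after their values were seen. So were Ndufb1-ps, mt-Nd1, mt-Nd4l, mt-Nd5, Yy1 and Gabpb1.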

Additional observations from a re-analysis of the deposited data

How the results depend on the processing

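With the replicate block, 25 of all genes passed the threshold and 0 Nduf genes, and the block changed no call of a named gene other than Rbm20, which passed at an edgeR adjusted p of 0.0107. Over the alternatives the count over all genes was 0 in the reported test, 8 with no low-count filter, 75 with DESeq2, 520 with DESeq2 and the block, 122 with the length and GC trend removed and the block, and 0 to 690 when libraries were left out. Nduf genes called were 2 with DESeq2 and the block (Ndufa12 and Ndufa13) and 0 to 3 when libraries were left out, the 3 without both libraries numbered 3. Of the named genes near 0, Ndufaf1 turned to 0.041 with upper quartile factors, 0.022 with the CPM filter, 0.011 with the trend removed and 0.012 with the trend removed and the block. Nrf1 turned to -0.016 and -0.015 in the last pair of settings, and Gabpa to 0.0081 with upper quartile factors. When libraries were left out, log2 fold changes ran from -0.070 to 0.069 for Ndufaf1, -0.19 to 0.011 for Ndufs7, -0.022 to 0.078 for Ndufv1, -0.0022 to 0.29 for Ndufaf3, -0.0075 to 0.26 for Ndufa4l2, -0.0082 to 0.11 for Nrf1 and -0.11 to 0.080 for Gabpa. The cause was not tested. The median over the Nduf genes stayed below 0 in all 21 alternatives, at -0.30 to -0.05. None of these scaled to total counts alone, and the sign under that scaling was not tested. The summed Nduf share of total counts was higher in AAV-RBM20 than in AAV-GFP for replicates 1 and 2. With 3 libraries per group and standard errors of 0.11 or more, differences of the size seen in single Nduf genes could not be told from the spread between libraries in the reported test.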
